A study of Homo sapiens with 4 samples.

Results

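The ZNF genes of human chromosome 19 were described by where they lie, what proteins they encode and how abundant their transcripts were in a breast cancer cell line. Members were the rows of the deposited gene table whose symbol is ZNF followed by a number and at most 1 letter and whose chromosome is 19. This rule gave 204 genes out of 13957 rows. They made up 21.4% of the 953 rows on chromosome 19 and 48.6% of the 420 rows with such a symbol, and the next chromosomes were 7 with 27 and 16 with 24.

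RNA was sequenced from MDA-MB-231 Fluc, a triple-negative, mesenchymal-like breast cancer line that carries an inserted luciferase gene. There were 2 samples given 50 µM cordycepin, the 3′ deoxy analogue of adenosine, and 2 given DMSO, the vehicle, each for 2 h. A single line was used, and the table holds 1 mean level per gene over the libraries, so levels are given as the authors' mean, without an error or a number of replicates, and the depth of the libraries is unknown. Cordycepin and DMSO were therefore not compared, and no difference between genes was tested. Each level is a mean over cordycepin and DMSO samples together, not the level of untreated cells.

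The table carried the marks of the line. VIM, CD44, CAV1, AXL and MSN, all typical of mesenchymal breast cancer cells, had levels of 9.68 to 11.01 log2 CPM (CPM, read counts scaled to a common library size, on a log2 scale). ESR1 and PGR, the oestrogen and progesterone receptors, had no row in the table analysed here, nor had any of the 6 leukocyte, endothelial and fibroblast markers looked for. The other luminal markers had low to middling rows, with GATA3 at 4.48, FOXA1 at 2.34, CDH1 at 3.68 and EPCAM at 3.68 log2 CPM.

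Zinc finger proteins of the C2H2 type read DNA with repeated units in which a pair of cysteines and a pair of histidines hold a zinc ion. Most of those on chromosome 19 also carry a KRAB domain at the start of the protein, which binds the scaffold protein TRIM28 and so brings histone methylation and silencing to transposable elements and other sites. The family grew by tandem duplication, and its genes lie in arrays of close relatives.

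The repeat itself is shown by the DNA of single fingers from the member pairs that rank 1 and 3 in protein identity and from 2 reference points, ZNF146 (the highest level per kb) and ZNF91 (the most fingers). Each run of 84 bases starts at the first cysteine and ends after the linker to the next finger and the pair of residues behind it. Capitals mark the codons of the zinc-binding cysteines and histidines. For a pair, the first unit found at aligned positions in both proteins is printed. All lie in coding exons on GRCh38 and are written on the strand of the gene, 5′ to 3′.
ZNF417, finger 5 of 12, chr19:57909135-57909218, minus strand: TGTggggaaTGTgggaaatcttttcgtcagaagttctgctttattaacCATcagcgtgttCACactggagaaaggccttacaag
ZNF587, finger 6 of 13, chr19:57859472-57859555, plus strand: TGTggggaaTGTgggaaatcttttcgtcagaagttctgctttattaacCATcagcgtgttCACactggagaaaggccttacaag
ZNF443, finger 1 of 16, chr19:12431494-12431577, minus strand: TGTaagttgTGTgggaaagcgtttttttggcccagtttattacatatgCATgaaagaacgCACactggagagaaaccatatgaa
ZNF799, finger 1 of 15, chr19:12391720-12391803, minus strand: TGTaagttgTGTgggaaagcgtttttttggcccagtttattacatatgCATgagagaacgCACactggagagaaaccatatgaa
ZNF146, finger 3 of 10, chr19:36236660-36236743, plus strand: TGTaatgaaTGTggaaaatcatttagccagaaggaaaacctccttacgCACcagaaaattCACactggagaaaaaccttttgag
ZNF91, finger 2 of 31, chr19:23362094-23362177, minus strand: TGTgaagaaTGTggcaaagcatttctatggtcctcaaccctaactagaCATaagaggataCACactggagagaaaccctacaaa

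The units of ZNF417 and ZNF587 differed at 0 of 84 bases and those of ZNF443 and ZNF799 at 1, in pairs chosen for their identity. Those of ZNF146 and ZNF91, which were not taken from aligned positions, differed at 31. The pair that ranks 2, ZNF585A and ZNF585B, differed at 0 of 84 in its unit (finger 7 in both), which is left out as it adds no further contrast. In the translated coding sequences of the 198 protein-coding members, 2491 fingers were found, and 1133 linkers had the TGEKP form that joins neighbouring fingers. The linker was spelled in 127 ways, of which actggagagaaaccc was the most common, at 19.7% of linkers. It is the linker of the ZNF91 unit above. The 4 residues of each finger that usually contact DNA, at positions -1, 2, 3 and 6 of its helix, fell into 1476 combinations, and 73.4% of these occurred in 1 member protein only.

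Chromosome 19 ZNF genes were low in abundance. Their median level was 2.85 log2 CPM, with an interquartile range of 1.97 to 3.72, against 4.58 for all rows, 4.93 for the 749 other genes of chromosome 19 and 3.30 for the 216 ZNF genes on other chromosomes. Of the members, 105 (51.5%) were among the lowest 25% of all rows, compared with 39.8% of ZNF genes elsewhere and 26.7% of the other chromosome 19 genes. The lowest log2 CPM in the whole table, 0.56, belonged to a member, ZNF256, a gene singled out after its value was seen.

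Since longer transcripts give more reads, genes were set beside each other as log2 CPM per kb of the length given in the table. Members had a median of 0.32 log2 CPM per kb (interquartile range -0.25 to 1.25), which was 2.11 below the median of all rows on the log2 scale and 0.45 below that of ZNF genes elsewhere. Only 14 members (6.86%) exceeded the median of all rows. Members ranged from 1407 bases (the pseudogene ZNF887P, 0.13 log2 CPM per kb) to 14132 bases (ZNF431, 0.52 log2 CPM per kb), with a median length of 5425.5 bases.

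**Figure D1:**
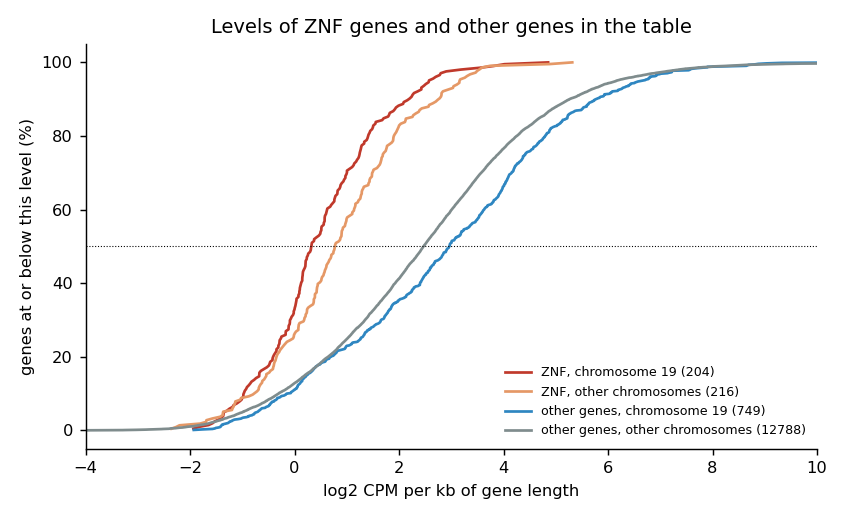
Share of genes (%, vertical) at or below each level (log2 CPM per kb of gene length, horizontal, mean over libraries) for chromosome 19 ZNF genes, ZNF genes elsewhere and other genes on and off chromosome 19, with the number of genes in brackets. The curve of the 204 members crosses the dotted 50% line at 0.32, left of ZNF genes elsewhere (0.78) and of other chromosome 19 genes (2.97).

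The highest member was ZNF146 (chr19:36214602-36238774, plus strand), which encodes a protein built almost wholly of zinc fingers. It reached 4.85 log2 CPM per kb and 6.91 log2 CPM, and its level per kb exceeded that of 86.6% of all rows. Next came ZNF428 at 4.01, ZNF787 at 3.81, ZNF580 at 3.54 and ZNF358 at 3.18 log2 CPM per kb. A KRAB A box was found in none of these 5. ZNF580 overlaps ZNF581 (2.36 log2 CPM per kb) and CCDC106 on the same strand, so reads of these genes may not have been told apart.

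At the other end stood ZNF490 at -1.94, ZNF599 at -1.82, ZNF726 at -1.64, ZNF555 at -1.57 and ZNF568 at -1.53 log2 CPM per kb. The level per kb of ZNF490 (chr19:12576100-12640098, minus strand) exceeded that of 1.05% of all rows, but much of its sequence also lies in transcripts of overlapping genes, as given below. Their levels were 0.83 for ZNF490, 0.94 for ZNF599, 1.01 for ZNF726, 1.53 for ZNF555 and 1.71 for ZNF568 on the log2 CPM scale, and exceeded 0.62% (ZNF490) to 11.3% (ZNF568) of all rows. The order per kb depends on the length used. On the annotated exon lengths given with the processing, ZNF568 and ZNF345 would lie lower than ZNF490.

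Along the chromosome, 198 of the 204 members fell into 11 clusters, defined as at least 3 members whose neighbouring starts lie at most 1 Mb apart. The median distance between neighbouring starts was 47.1 kb, and the largest, 8.31 Mb, lay between ZNF254 and ZNF507, on either side of the centromere. Cluster 11, at the end of the long arm (55.5 to 58.5 Mb), was the largest with 53 genes (26.0% of members). It was followed by cluster 10 with 36 (51.6 to 53.6 Mb), clusters 4 (19.7 to 21.9 Mb) and 7 (36.2 to 37.8 Mb) with 22 each, cluster 3 with 19 (11.5 to 12.6 Mb), cluster 9 with 16 (43.6 to 45.1 Mb) and cluster 2 with 13 (7.07 to 9.79 Mb). The remaining clusters, 1, 5, 6 and 8, had 3 to 6 genes.

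The highest cluster median was 1.00 log2 CPM per kb in cluster 2, followed by 0.72 in cluster 10 and 0.60 in cluster 11, and the lowest were -0.82 in cluster 6 and -1.45 in cluster 1. Clusters 3, 4, 5, 7, 8 and 9 had medians between -0.06 and 0.35. In cluster 7 the levels ran from ZNF568 at -1.53 to ZNF146 at 4.85 log2 CPM per kb, and in cluster 9 from ZNF230 at -1.36 to ZNF428 at 4.01. The range in cluster 4 was smaller, from ZNF429 at -1.17 to ZNF714 at 1.44, and in cluster 5 it ran from ZNF726 at -1.64 to ZNF91 at 0.56.

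**Figure D2:**
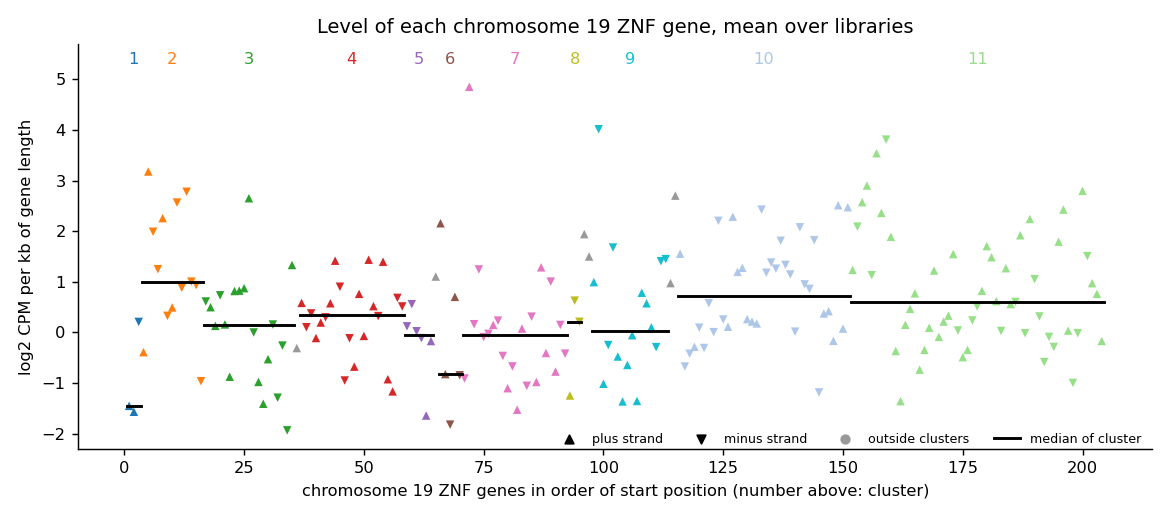
Level of each of the 204 members (log2 CPM per kb of gene length, mean over libraries) in order of start position; triangles point up for the plus strand and down for the minus strand, colours and numbers mark the 11 clusters, and black lines give cluster medians. Medians lie between -1.45 and 1.00, while single genes reach 4.85 in cluster 7 and 4.01 in cluster 9.

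The other clusters had their extremes as follows. In cluster 2 ZNF846 was lowest at -0.96 log2 CPM per kb, and ZNF358 highest. Cluster 3 had ZNF490 lowest and ZNF700 highest at 2.65. In cluster 6 ZNF599 was lowest and ZNF302 highest at 2.16 log2 CPM per kb. ZNF665 at -1.19 and ZNF761 at 2.51 were the extremes of cluster 10, and ZNF583 at -1.36 and ZNF787 at 3.81 those of cluster 11. The small clusters 1 and 8 ran from ZNF555 at -1.57 to ZNF77 at 0.21, and from ZNF546 at -1.25 to ZNF780B at 0.63 log2 CPM per kb.

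The 6 members outside any cluster had a median of 1.30 log2 CPM per kb, and all were on the plus strand. ZNF473, which takes part in histone pre-mRNA processing, had 2.70, ZNF574 had 1.94, ZNF526 had 1.50, ZNF507 had 1.10, ZNF114 had 0.97 and ZNF333 had -0.31 log2 CPM per kb. The KRAB pattern was found in 2 of these proteins.

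Neighbours resembled each other weakly in level. Over the 187 adjacent pairs within clusters, log2 CPM per kb had a Pearson's r of 0.23 and a Spearman's rho of 0.27. It was 0.29 (Pearson) for the 115 pairs on the same strand and 0.16 for the 72 on opposite strands. These are descriptions across genes, which share their libraries and are not replicates. The median difference between adjacent members was 0.92 log2 CPM per kb, against 1.10 between members of different clusters.

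Strand use was 113 genes (55.4%) on the plus and 91 on the minus strand, and 61.5% of adjacent pairs shared a strand. In cluster 11, 36 of 53 genes were on the plus strand, whereas in cluster 10 there were 15 of 36, and 29 of its 35 adjacent pairs shared a strand. In 3 pairs the start sites faced each other within 1000 bases. ZNF829 and ZNF568 start 38 bases apart and had -0.67 and -1.53 log2 CPM per kb. ZNF790 and ZNF345, whose 5′ ends overlap, had -0.47 and -1.10, and ZNF585B and ZNF383 had 0.31 and -0.98. In each of the 3 pairs the gene on the minus strand had the higher level.

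Not every annotated gene had a row. Of 246 protein-coding ZNF genes that GENCODE 44 places on chromosome 19, 198 (80.5%) had one. All annotated genes within the bounds of clusters 4, 5, 6 and 8 did, against 3 of 5 in cluster 1, 13 of 15 in cluster 2, 17 of 25 in cluster 3, 16 of 23 in cluster 9, 22 of 26 in cluster 7, 34 of 39 in cluster 10 and 52 of 59 in cluster 11. The longest unbroken run of annotated genes without a row lay between clusters 4 and 5, from ZNF208 to ZNF730 (chr19:21932958-23147221), and held 10 genes: ZNF208, ZNF257, ZNF676, ZNF729, ZNF98, ZNF492, ZNF99, ZNF723, ZNF728 and ZNF730. The next longest, ZNF793, ZNF540 and ZNF571, held 3 and lay inside cluster 7. Since clusters are built only from genes with a row, these 10 genes belong to no cluster, and their absence leaves the gap that divides cluster 4 from cluster 5. Over the whole stretch from the start of cluster 4 to the end of cluster 5, 27 of 37 annotated genes (73.0%) had a row.

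The proteins of clusters 4 and 5 were also the most alike. Pairs in cluster 5 had a median identity of 72.4% and pairs in cluster 4 of 67.2%, over the shorter protein of a pair. This compares with 45.2% over all 2693 pairs of a common cluster, 55.8% over the 175 adjacent pairs with proteins and 42.1% over 15643 pairs from different clusters. Cluster 11, the largest, had 39.7%, and cluster 1 had 36.1%. The difference in level between paired members was 0.54 log2 CPM per kb (median) in cluster 5 and 0.79 in cluster 4, against 1.11 in cluster 11. Genes of related proteins can share bases, and so reads, as given below. The largest share of read-length stretches that any gene had in common with other members was 1.51% in cluster 4 and 0.24% in cluster 5. In cluster 11 it was 22.9%. Whether shared reads bear on the differences in level was not tested.

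**Figure D3:**
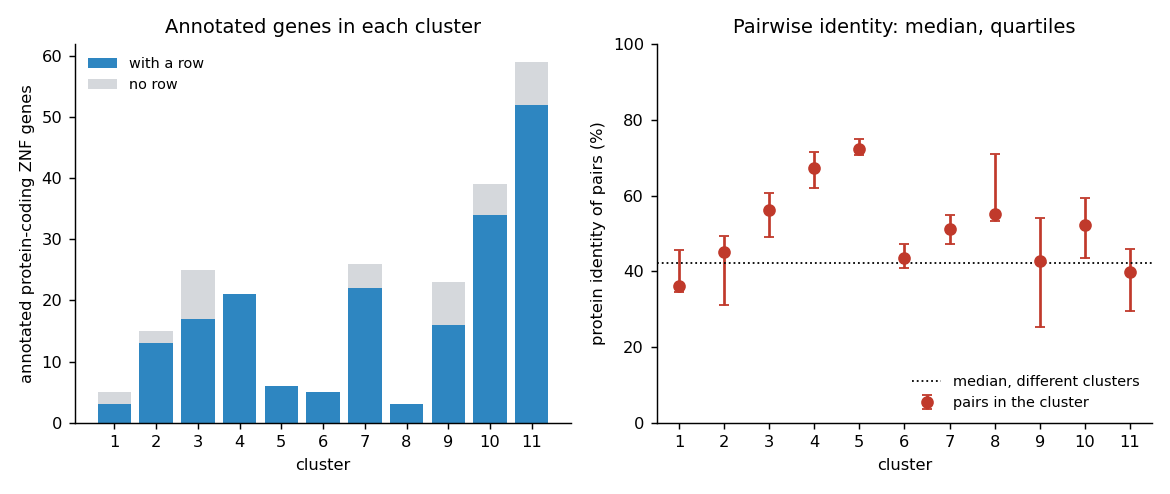
Left, number of protein-coding ZNF genes annotated in each of the 11 clusters, with (blue) and without (grey) a row in the table; right, protein identity (%) of pairs within each cluster as median (point) and quartiles (bars), with the median of pairs from different clusters dotted (42.1%). Clusters 4 and 5 have the highest identities, 67.2% and 72.4%; the 10 annotated genes without a row that lie between them are in neither bar.

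The member proteins had a median of 12 fingers, with an interquartile range of 10 to 15. ZNF91, with 31, had the most, followed by ZNF850 with 29 and ZNF845 with 26, and their levels were 0.56, 0.23 and 0.37 log2 CPM per kb. ZNF428 had 1 finger, and ZNF414, ZNF114, ZNF580 and ZNF446 had 3, at 4.01, 1.99, 0.97, 3.54 and -0.17 log2 CPM per kb. Thus 3 of the 5 proteins with fewest fingers, and none of the 3 with most, had levels above 1.25, the upper quartile of members. This contrast depends on the division by length. On the log2 CPM scale, where the upper quartile of members was 3.72, ZNF91 had 3.92, ZNF850 3.21 and ZNF845 3.06. ZNF428 had 4.65, ZNF414 3.45, ZNF114 2.57, ZNF580 4.92 and ZNF446 2.08 on that scale. Over all 198 proteins the relation was weak, with a Pearson's r of -0.18 and a Spearman's rho of -0.13 between fingers and log2 CPM per kb. Between length and log2 CPM per kb, Pearson's r was -0.20 over the 204 members.

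A KRAB A box pattern was found in 156 of the 198 proteins (78.8%). Genes with it had a median of 0.21 log2 CPM per kb (interquartile range -0.30 to 0.89), and the 42 without it had 1.33 (0.21 to 2.41). The latter also had shorter transcripts, with a median length of 4272.5 against 5867 bases, and fewer fingers, 11 against 13. On the log2 CPM scale, with no division by length, the medians were 2.76 and 3.33. Of the 14 members above the median of all rows, 10 lacked the pattern. The pattern was first written more narrowly and widened after its result was seen. With the first pattern the medians were 0.25 log2 CPM per kb for 146 genes with it and 1.12 for 52 without it, and with a stricter one 0.31 for 136 and 0.59 for 62, so the gap between the groups shrank from 1.11 to 0.87 and 0.28 on the log2 scale. The search reads 1 transcript per gene, and its result depends on the pattern, which matched 156, 146 or 136 proteins. A protein without a match may therefore still have a KRAB domain.

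Genes without the KRAB pattern were not spread evenly. The share of proteins with the pattern was 69.2% in cluster 11 (36 of 52) and in cluster 2 (9 of 13), and 78.8% over all. It was 94.1% in cluster 10 (32 of 34) and 90.5% in cluster 4 (19 of 21). In the small clusters 5 and 6, all 6 and all 5 proteins had it. Cluster 11, the largest, held 16 genes without it, and 9 lay side by side at its start (chr19:55476617-56160893). They were ZNF628, ZNF579, ZNF524, ZNF865, ZNF784, ZNF580, ZNF581, ZNF787 and ZNF444, and their levels ran from 1.13 for ZNF784 to 3.81 for ZNF787, with a median of 2.36 log2 CPM per kb. The other 44 genes of cluster 11 had a median of 0.32, and 36 of their 43 proteins had the pattern. No other run of neighbours without the pattern held more than 2 genes. This run was picked out after its values were seen. Without these 9, the 33 remaining genes that lacked the pattern had a median of 1.10 log2 CPM per kb.

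**Figure D4:**
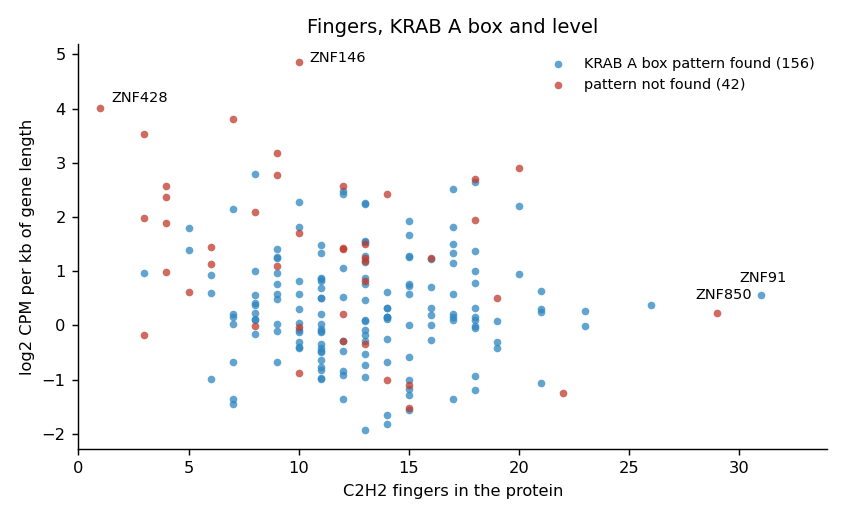
Number of C2H2 fingers in each protein-coding member (horizontal) and its level (log2 CPM per kb of gene length, vertical), in blue where a KRAB A box pattern was found (156) and red where it was not (42). Red points make up most of the highest levels, with ZNF146 at 4.85 and ZNF428 at 4.01, while ZNF91 with 31 fingers is at 0.56.

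Closely related members often had different levels. ZNF417 and ZNF587, neighbours that repress endogenous retroviruses of the HERV-K group, shared 98.1% of residues, and 10 of their 12 aligned fingers had the same 4 contact residues. ZNF417 was at 1.05 and ZNF587 at 2.24 log2 CPM per kb. ZNF585A and ZNF585B (94.5% identity, 15 of 21 aligned fingers with the same contacts) were at -1.05 and 0.31. ZNF443 and ZNF799 (93.0%, 10 of 15) were at -0.26 and -1.29.

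In ZNF302 and ZNF181 (90.5% identity, 5 of 7 aligned fingers with the same contacts), the levels were 2.16 and -0.82 log2 CPM per kb. This pair, which lies outside the rule for named genes, was chosen after its values were seen, and its difference of 2.98 was the largest among the 20 most similar pairs. Pairs of at least 70% identity had a median difference of 0.77 log2 CPM per kb, compared with 1.05 over all pairs of a common cluster. The 2 sets differ in makeup. Of the 226 pairs of at least 70% identity, 54 joined different clusters and 172 lay within 1 cluster, with 70 in cluster 4 and 12 in cluster 5.

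**Figure D5:**
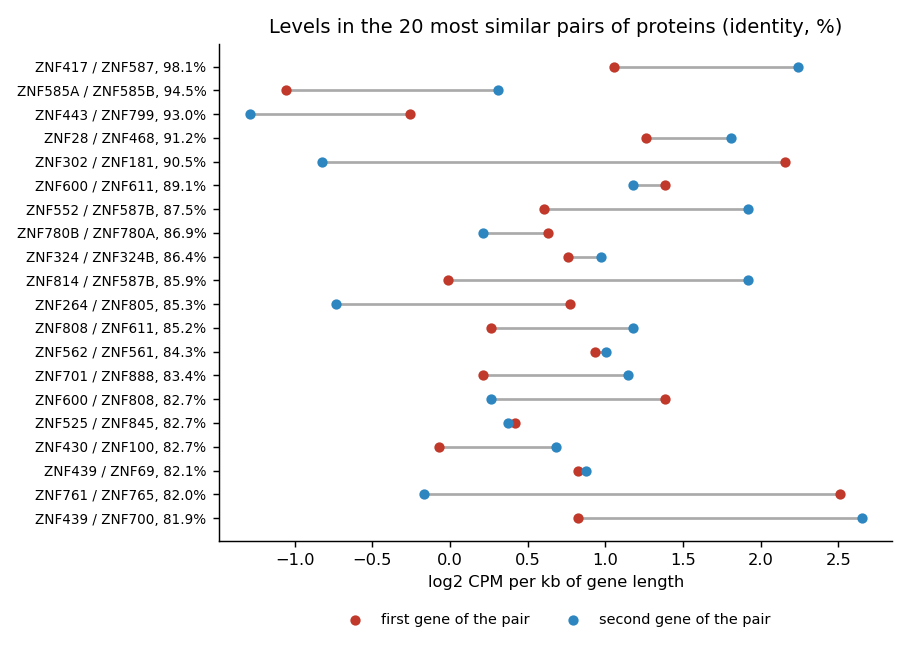
Level (log2 CPM per kb of gene length, mean over libraries) of both genes in each of the 20 member pairs with the highest protein identity, given in % beside the names; red is the first gene named and blue the second, and the grey line joins them. The lines are longest for ZNF302 and ZNF181 (2.98) and short for pairs such as ZNF562 and ZNF561 (0.07).

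Reads of such pairs could have been assigned to the wrong copy. To gauge this, every stretch of 75 bases, the length of a read, in a member's annotated transcripts was looked for in transcripts of genes elsewhere. No stretch was shared for 105 members, and more than 5% were shared for 13. The shares were 22.9% for ZNF417, 17.2% for ZNF587, 22.3% for ZNF443, 11.3% for ZNF799, 8.21% for ZNF585A and 11.5% for ZNF585B, so the levels of these 6 are uncertain. Over all members the share of such stretches and log2 CPM per kb had a Pearson's r of -0.02. The span of 63 members (30.9%) overlapped that of another row, in 26 of them on the same strand, and their median was 0.18 log2 CPM per kb, against 0.49 for the others. Stretches shared with overlapping annotated genes were counted apart. Among the extremes named above they made up 50.1% for ZNF490, 17.3% for ZNF358 and 16.3% for ZNF568, so these levels are uncertain too.

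Among 24 members of the family on chromosome 19 with a known role, 21 had a row, and ZNF208, ZNF382 and ZNF229 had none. Their median was 0.76 log2 CPM per kb, and 13 of the 21 were above the members' median. Of those that restrain retrotransposons, ZNF91, which acts on SVA elements, had 0.56, ZNF93, which acts on LINE-1, had 0.19, and ZNF808 had 0.26 log2 CPM per kb. ZNF274, which recruits a histone methyltransferase to the 3′ ends of ZNF genes themselves, was higher at 1.79.

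Several of the listed members are tied to cancer or to growth control. ZNF331, an imprinted gene, had 2.47, ZNF304 had 1.22, ZNF350, a partner of BRCA1, had 0.09, ZNF420, a regulator of p53, had 0.08, ZNF671 had 0.03, ZNF675, which binds TRAF6, had 0.02, and ZNF224, a partner of WT1, had -0.06 log2 CPM per kb. The remaining listed genes were ZNF444 at 1.89, ZNF180 at 1.41, ZNF85 at 0.76 and ZNF43 at 0.51 log2 CPM per kb. The level per kb of ZNF331 exceeded that of 50.9% of all rows and that of ZNF224 exceeded 12.6%.

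Transcripts for a list of KRAB corepressors and other proteins of gene silencing had higher levels than most members. All 25 genes of this list had a row, and all 25 were above the members' median per kb, as were 83.0% of all rows. Their median was 3.37 log2 CPM per kb, from 0.79 for RESF1 to 7.61 for TRIM28, the protein that KRAB domains bind. TRIM28 itself lies on chromosome 19, at chr19:58544064-58550722, beyond the last member of cluster 11. SETDB1, its histone methyltransferase, was lower at 1.67, whereas CBX1 and CBX3, which bind methylated histone H3, had 5.71 and 5.69 log2 CPM per kb.

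Of the 6 pseudogenes among the members, ZNF702P had 2.08, ZNF826P 0.90, ZNF137P 0.18, ZNF887P 0.13, ZNF542P -0.37 and ZNF788P -1.41 log2 CPM per kb. They were named as the group that yields no protein, after their values were seen. The lengths in the table and in GENCODE 44 differ for several of them, and on the GENCODE exon length ZNF826P would be at 2.56, ZNF702P at 1.88, ZNF542P at 1.48 and ZNF788P at 0.10 log2 CPM per kb. For ZNF826P (6008 bases used here against 1910) and ZNF788P (5692 against 1994), the span of the GENCODE record differs too. The values and shares taken from those 2 records may not describe the rows. Of the pseudogenes' 75-base stretches, 96.0% for ZNF826P, 93.0% for ZNF788P and 38.3% for ZNF887P were also found in transcripts of genes that overlap them. These levels may therefore hold reads of other genes. For ZNF542P the share was 100%, but GENCODE 44 also lists a lncRNA named ZNF542P over the same span as the row (chr19:56368099-56379828). Its value of 1.48 rests on the 1305 bases of the pseudogene record, against 4690 bases used here, and may not describe the row.

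Promoters could be matched by symbol for 180 members (88.2%), using RefSeq windows on GRCh38.p14 from 250 bases before to 50 after the start. Their median GC content was 60.2%, with an interquartile range of 56.3% to 64.4%, against 62.7% for 178 of the ZNF genes elsewhere. Those 178 were 82.4% of the ZNF genes elsewhere, so that comparison is incomplete too. All rows had a median of 65.3% and the other genes of chromosome 19 of 66.3%. Only 71.3% and 75.3% of them had a promoter in the table of windows, so no comparison with them was drawn. Over the 180 members, promoter GC content and log2 CPM per kb had a Pearson's r of 0.25 and a Spearman's rho of 0.20.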

How the data were processed

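The MDA-MB-231 Fluc line gave 4 samples (2 with 50 µM cordycepin and 2 with DMSO, for 2 h), whose RNA was made into stranded, ribosomal RNA-depleted libraries and sequenced as paired 75 base reads. According to the study's methods, reads were mapped to GRCh38 and counted with rsubread, while the submitters' processing notes name hg38, TopHat, HTSeq, DESeq and Cufflinks. The authors deposited 1 table with a mean log2 CPM per gene over the libraries and a gene length in bases. The prior count, normalization and filter on low values are not given in the sources used here, so genes below the authors' filter have no row. The table's fold change, F statistic, p-value and adjusted p-value for cordycepin against DMSO are the authors' own comparison and were not used. The table holds 0 further columns per sample, so no error, test or depth could be given.

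Level per kb was log2 CPM less log2 of length in kb (1000 bases). The members' lengths were within 1% of the GENCODE 44 exon length for 88.7% of them. Among genes named for their level, the length used was shorter for ZNF568 (9437 against 18608 bases), ZNF345 (4739 against 8842), ZNF846 (3912 against 5916) and ZNF761 (4674 against 5626). On the exon length their levels per kb would be lower. ZNF568 and ZNF345 would then lie below ZNF490, given above as the lowest member, and ZNF761 would no longer be the highest of cluster 10. Clusters were runs of at least 3 members with starts at most 1 Mb apart. Proteins were translated from GENCODE 44 canonical coding sequences, where RefSeq proteins had been planned. A finger was C, 2 to 4 residues, C, 12 residues, H, 3 to 5 residues, H, and a KRAB A box was D or N, V, 3 residues, F, S or T, 2 residues, E or Q, W or L. Identity came from end-gap-free global alignment in Biopython 1.88, with Python 3.11.15, pandas 2.3.3, numpy 2.4.6, scipy 1.17.1 and matplotlib 3.10.9. Cluster and finger calls were tested on simulated data.

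The members and gene lists were chosen with earlier results of these data known. Genes named were the extremes of each cluster and of all members in level per kb, length and fingers. Named too were the 3 most similar pairs, members outside clusters, and lists of genes with known roles and of corepressors and other silencing proteins. Others are said to have been picked after their values were seen. Alternatives were other cluster gaps, exon length, low-value and overlap filters, stricter patterns and other identity and neighbour measures.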

Additional observations from a re-analysis of the deposited data

How the results depend on the processing

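Values were compared under 38 planned or added settings, and 25 of them left a value within 0.1 on the log2 scale, within 1.5 times for a count or a share of residues, or within the 95% Wilson interval of a percentage. A gap of 2 Mb between neighbours gave 6 clusters in place of 11. Keeping the 99 members above the lowest 25% of all rows raised the members' median to 3.73 log2 CPM and 1.25 log2 CPM per kb, by construction. Without members that overlap another row the median per kb was 0.49 for all, 1.13 in cluster 2, 0.50 in cluster 3, 0.15 in cluster 7 and 1.05 in cluster 10. With a gap of 0.5 Mb the largest piece of cluster 11 (40 genes) had a median of 0.42 log2 CPM per kb. A stricter KRAB pattern was met by 68.7% of proteins, and the narrower pattern first tried, added after the data were seen, by 73.7%. The median of genes without the pattern, 1.33 log2 CPM per kb, became 0.59 with the stricter pattern and 1.12 with the first, both comparisons added after the data were seen. Pairs of a common cluster shared a median of 6.89% of words of 5 residues, a measure that is lower than identity by its construction.

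No paired analysis was possible because the table holds 1 mean per gene over the libraries. For the same reason no replicate was left out. The table gives no counts, so the precision of low levels is unknown, and a gene without a row is not shown to be silent. Levels of members with near-identical copies, and of those that overlap other genes on the same strand, depend on how reads were assigned. Neither was tested.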
